A study of Saccharomyces cerevisiae with 21 samples.

Results

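The comparison set the last 3 libraries of a yeast time course, taken at 180, 190 and 200 min after release from a G1 arrest, against the 3 libraries of the first burst of G1/S transcription, taken at 20, 30 and 40 min. These 6 of 21 libraries are set by sampling time, in a comparison proposed with earlier results of these data known. All 21 came from the BF264-15D background, a MATa strain with the alleles bar1::hphMX4 and arg4, in which every B-type cyclin gene carried a disruption (clb1::URA3 with clb2::LEU2, then clb4::HIS2 with clb3::TRP1, and clb6::ADE1 with clb5::ARG4). The strain was kept alive by PGAL1-CLB1::LEU2, a galactose-driven copy of CLB1 that is shut off in glucose. Cells were grown in YEPGalactose at 30 °C, held in G1 with 30 ng/ml of the mating pheromone alpha-factor for 160 min, and released into YEPDextrose, from which a sample was frozen every 10 min. Both windows share all of this and differ in time after release. Each time point has 1 library, so the 3 libraries of a window are neighbouring times of what the labels present as a single series, and the p-values below are too small to stand for independent cultures.

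In budding yeast the transcription factors SBF and MBF switch on a burst of genes for budding, cell-wall growth and DNA replication at the exit from G1. B-type cyclins, with the kinase Cdk1, start DNA replication, shut SBF down and drive mitosis, and cells without them bud but neither replicate their DNA nor divide. Cells held in this state continue to grow and to bud.

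Values are FPKM, fragments normalised for transcript length and library size, compared as log2(FPKM + 1). Of 7126 loci in the table, 6203 had a mean of at least 1 FPKM over the 6 libraries and were tested. A locus was called when limma gave a Benjamini-Hochberg adjusted p under 0.05 and the window means differed by at least 1 on the log2 scale. By that rule 638 loci (10.3%) rose and 263 (4.24%) fell between the first pulse and the end of the course. With the adjusted p alone, 1849 loci (29.8%) were higher and 1397 (22.5%) were lower at the end, 3246 (52.3%) in all. The median log2 difference over all loci was 0.07, with quartiles of -0.36 and 0.55. Rescaling each library to the same sum of FPKM moved that median to 0.31, a shift of 0.24, and gave 1041 higher and 124 lower calls. Higher calls made up 70.8% of all calls as deposited, 89.4% after that rescaling and 63.7% after rescaling by the median ratio. RNA was measured in bulk, so fewer cells of a type and less RNA per cell cannot be told apart.

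The 6 libraries summed to between 1212671 and 1727296 FPKM, the lowest at 180 min and the highest at 40 min. Across all loci the SD of the log2 change between neighbouring libraries within a window was 0.451 to 0.592, against 0.768 for the difference between the window means. The former compares single libraries and the latter means of 3 libraries, so these SDs are not like measures. Loci shorter than 300 bp, which FPKM measures least reliably, had a median level, relative to each locus's mean, of -0.29 at 180 min and 0.34 at 190 min. Where a named gene is short and its 180 min value stands apart, this offset moves with the result and its part was not tested. Of the disrupted cyclin genes, CLB4 was listed at 0 FPKM in all 21 libraries, while the other 5 had values in every library of both windows. The labels do not say how much of each cyclin gene was removed, so those values do not check the labels. The mating type matched its label in that STE2, the receptor found in MATa cells, was at 157 to 682 FPKM in the 6 libraries, against 4.98 to 11.9 FPKM for STE3, the receptor of the opposite type.

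**Figure D1:**
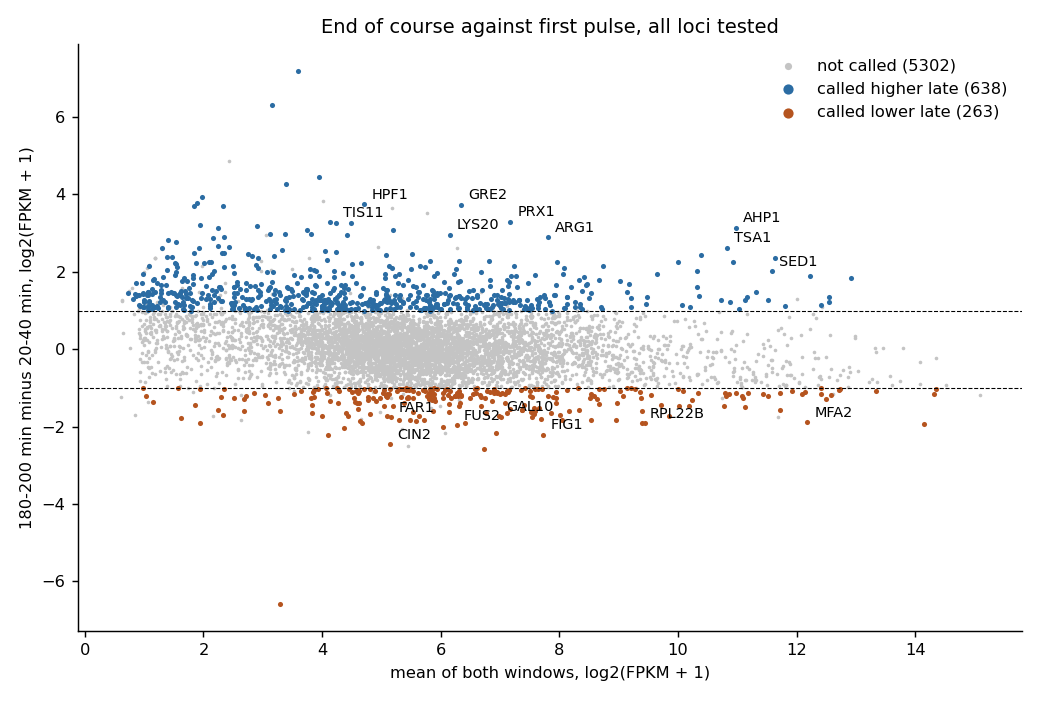
The window difference in log2(FPKM + 1) of each tested locus (vertical axis) is plotted against its mean level over both windows (horizontal axis), with dashed lines at -1 and 1. The 638 loci called higher (blue) extend further from 0 than most of the 263 called lower (orange), and the points furthest from 0 are at low mean levels, among them loci listed at 0 throughout a window.

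Among loci of at least 300 bp, the 15 with the greatest rise included SRX1, PRX1, AHP1 and TSA1 of the peroxide defence, HPF1 and YPS3 of the cell surface, TIS11 of the iron response, LYS20 and ARG1 of amino acid synthesis, and the methylglyoxal reductase gene GRE2. BOP2, YIR014W, YNR062C, YPL261C and DIC1, which encodes a mitochondrial dicarboxylate carrier, completed the 15. GRE2 stood at 29.8, 16.5 and 19 FPKM at 20, 30 and 40 min and at 277, 292 and 315 FPKM at 180, 190 and 200 min. The late libraries were all above the early ones by a wide gap, and the log2 difference was 3.74 ± 0.21 (SE, 3 against 3 libraries; limma, adjusted p = 0.000236). BOP2 went from 10.3 to 12.4 FPKM in the first pulse to 97.4 to 112 FPKM at the end, a log2 difference of 3.09 ± 0.11. Of all 638 loci that rose, 91 had a log2 difference of at least 2, and 8 of the 263 that fell did so in the other direction.

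Of the lists, the defence against oxidants had the highest median difference. In this system, peroxiredoxins reduce peroxides and are themselves recycled by thioredoxin, thioredoxin reductase and sulfiredoxin. Of 21 measured genes 12 rose and none fell, against 10.3% and 4.24% of all loci, and the list median was 1.29. AHP1, a thioredoxin-dependent peroxidase, stood at 854, 576 and 623 FPKM in the first pulse and at 5117, 6441 and 6357 FPKM at the end. All 3 late libraries lay far above the early ones, and the log2 difference was 3.14 ± 0.19 (limma, adjusted p = 0.000277). TSA1, the main cytosolic peroxiredoxin, rose from 566 to 914 FPKM to 3616 to 5746 FPKM, a difference of 2.62 ± 0.24. PRX1, the mitochondrial peroxiredoxin, had 56.4, 40.4 and 39.2 FPKM early and 356, 459 and 552 FPKM late, and its windows did not overlap either (3.30 ± 0.20). SRX1, the sulfiredoxin that reactivates Tsa1, was at 0, 1.08 and 0.291 FPKM early and at 5.87, 37.8 and 21.4 FPKM late, so its early values were near the limit of detection and its late values were spread widely (3.71 ± 0.63, adjusted p = 0.0035). Together the 21 genes took 0.263% of the summed FPKM in the first pulse and 1.43% at the end. For PRX1 the late level was first held from 140 min and for AHP1 and TSA1 from 120 min, taking the midpoint of the window means as the border. At 0 min, still in the arrest, AHP1 was at 1285 FPKM, above all 3 libraries of the first pulse and below all 3 of the end. Of the 12 genes that rose, 8 stood above their 0 min value in all 3 late libraries.

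**Figure D2:**
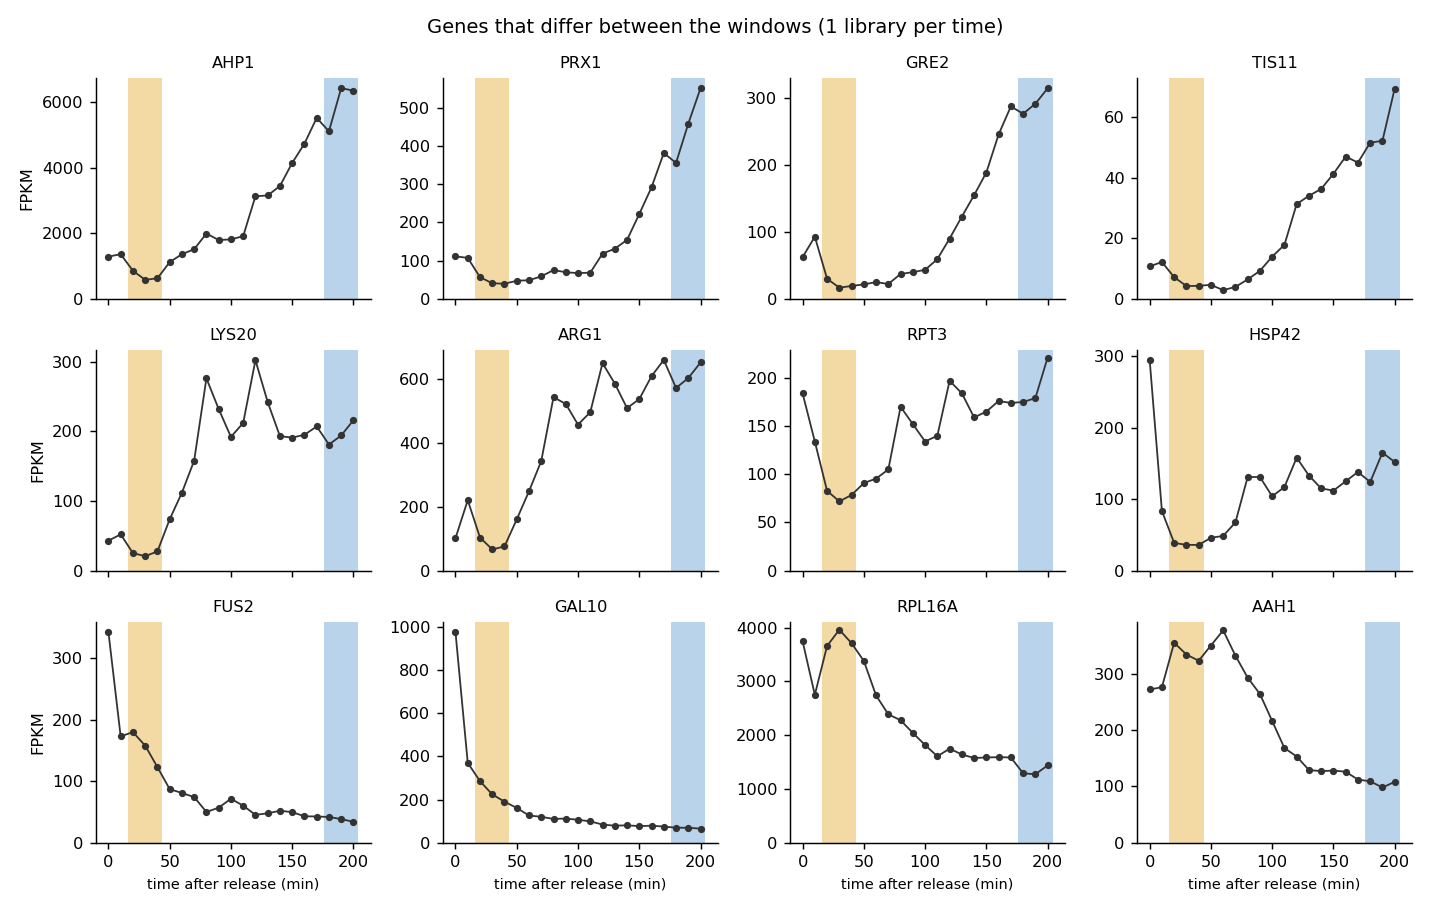
FPKM of 12 genes (vertical axes, linear and starting at 0) is drawn against time after release (horizontal axes), with 1 point per library, the first pulse shaded tan and the end of the course shaded blue. AHP1, PRX1, GRE2 and TIS11 had their highest values in the late window, LYS20 and ARG1 were already high by 80 min, and FUS2 and GAL10 were highest at 0 min, lower in the first pulse and lowest late.

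General stress genes, which the factors Msn2 and Msn4 activate through the stress response element, were also higher at the end. Of 25 measured genes 13 rose, none fell and 21 passed the adjusted p alone in the higher direction, with a list median of 1.09. HSP42, a small heat shock protein gene, stood at 38.8, 36.1 and 36.0 FPKM in the first pulse and at 124, 165 and 152 FPKM at the end (log2 difference 1.95 ± 0.12, limma adjusted p = 0.000277). The early libraries were almost equal and the late ones were all more than the highest of them. PNC1, the nicotinamidase, rose by 1.88 ± 0.26 and GRE1, a stress-induced hydrophilin gene at low levels, by 2.17 ± 0.25. Of the 13 that rose, 10 stayed below their 0 min value in all 3 late libraries and 2 exceeded it. HSP42 was at 295 FPKM in the arrest, and GRE1, which exceeded its arrest value, was at 6.66 FPKM then and at 10.5 to 19.7 FPKM late. YGP1, a secreted glycoprotein, stood at 144, 75.7 and 60.9 FPKM early and 38.3, 41.8 and 57.4 FPKM late, a difference of -0.94 that did not reach the size required for a call.

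The stores of trehalose and glycogen are governed by genes that respond to the same factors. Of 16 genes 5 rose and none fell, with a median of 0.57. TSL1, a subunit of the trehalose synthase complex, had 11.4, 8.66 and 8.32 FPKM early and 38.9, 34.4 and 45.4 FPKM late, with a clear gap between the windows (1.96 ± 0.15, limma adjusted p = 0.000437). TPS1, the synthase itself, rose by 1.62 ± 0.15 and NTH1, the neutral trehalase that breaks the sugar down, by 1.14 ± 0.12. The other neutral trehalase gene, NTH2, was at 23.1 to 29.5 FPKM early and 18.3 to 21.1 FPKM late, a difference of -0.39 that is below the size of a call. The upstream stretch of TSL1 is shown for its 3 copies of the stress response element AGGGG. It is the RefSeq R64 sequence from 300 to 51 bases before the annotated start, on the plus strand at chrXIII:70324-70573, and the capitals mark the element.
TSL1: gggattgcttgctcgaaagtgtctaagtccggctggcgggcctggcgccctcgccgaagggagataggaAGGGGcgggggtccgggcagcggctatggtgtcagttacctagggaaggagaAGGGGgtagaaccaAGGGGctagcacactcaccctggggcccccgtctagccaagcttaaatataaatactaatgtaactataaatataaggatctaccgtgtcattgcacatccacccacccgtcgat
AGGGG was found on either strand in 18 of 25 Msn2/4 list members and in 19.6% of all 5670 such stretches. It was present in 34.7% of the stretches of genes that rose and in 9.65% of those of genes that fell. A match of 5 letters is a description of the sequence and not a site. For the oxidant defence list, the Yap1 element TTACTAA was found on either strand in 8 of 21 such stretches. It was in 6.53% of all stretches and in 7.34% of those of genes that rose.

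Chaperones under the heat shock factor Hsf1 followed a different course. Of 19 genes 6 rose and none fell (median 0.70), and 5 of the 6 stood above their 0 min value in every late library. HSP78, a mitochondrial disaggregase, was at 37.7, 51.4 and 57.0 FPKM in the first pulse and at 133, 126 and 121 FPKM at the end (1.38 ± 0.16, limma adjusted p = 0.000843). STI1 and AHA1, both cochaperones of Hsp90, rose by 1.35 ± 0.17 and 1.21 ± 0.17 and were past the midpoint from 50 min on. The list median was highest at 80 min and lower in the late window than at that time, as the plot of lists over the course shows.

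The 32 measured proteasome genes comprise the subunits and RPN4, which encodes their activator. All were higher at the end with no overlap between the windows and passed the adjusted p alone, where 34.9% of all loci lay without overlap in that direction. The individual differences were moderate, between 0.40 for RPN11 and 1.62 for PRE6 with a median of 0.91, so that 11 of 32 reached a log2 difference of 1. That count was 7 without the 30 min library and 15 without the 180 min library. RPT3, an ATPase of the regulatory particle, stood at 82.8, 71.9 and 78.5 FPKM early and at 175, 179 and 221 FPKM late (1.28 ± 0.12, limma adjusted p = 0.000556). PRE8, an alpha subunit of the core, was at 112 to 136 FPKM early and 314 to 350 FPKM late, and PUP1, a beta subunit, at 134 to 161 FPKM early and 322 to 457 FPKM late. Both rose without overlap, by 1.36 ± 0.11 and 1.41 ± 0.15. As a share of summed FPKM the 32 genes went from 0.303% to 0.662%. Proteasome genes are activated in yeast by Rpn4 through the proteasome-associated control element, whose core GGTGGCA was found on either strand in 27 of 32 upstream stretches, against 2.61% of all stretches. The stretch of RPT3 shows it, from RefSeq R64 on the plus strand at chrIV:1261381-1261630, with the core in capitals.
RPT3: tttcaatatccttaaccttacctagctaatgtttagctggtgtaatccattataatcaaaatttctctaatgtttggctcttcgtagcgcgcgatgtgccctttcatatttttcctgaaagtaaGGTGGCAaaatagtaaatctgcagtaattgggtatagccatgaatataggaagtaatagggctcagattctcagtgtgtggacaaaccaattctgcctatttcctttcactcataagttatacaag
Genes for vacuolar proteases and autophagy, the other main route of protein turnover, also rose in part. Of 17 genes 4 rose and none fell (median 0.74), among them PRC1, carboxypeptidase Y, with 62.8 to 89.3 FPKM early and 152 to 259 FPKM late (1.41 ± 0.22), and ATG19, a receptor of selective autophagy (1.40 ± 0.13). All 4 that rose remained under their 0 min value in the late window.

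**Figure D3:**
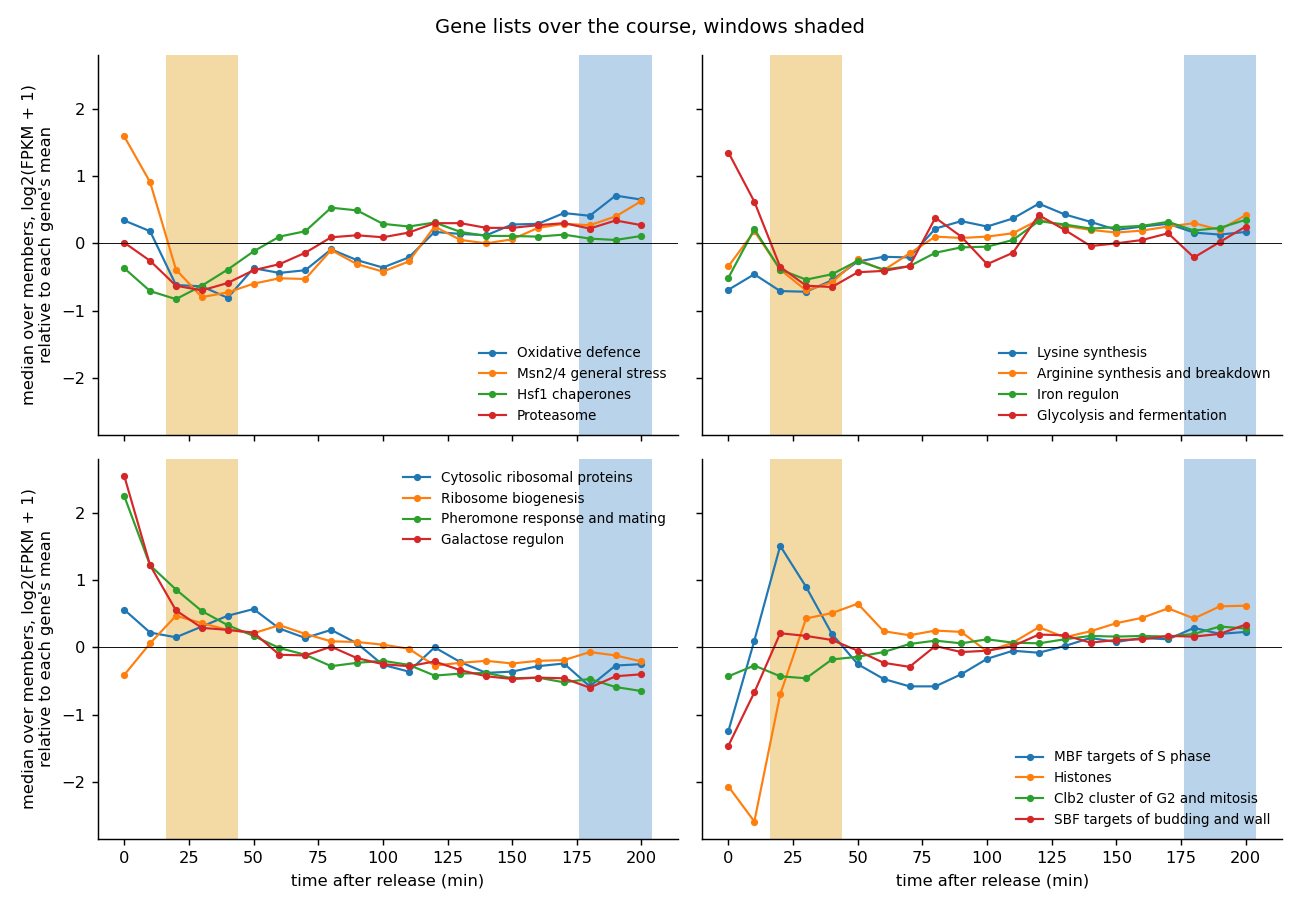
The median over list members of log2(FPKM + 1), relative to each gene's own mean over 21 libraries (vertical axes), is drawn against time after release (horizontal axes), with the first pulse shaded tan and the end of the course blue. Stress, oxidant and proteasome lists were low in the first pulse and higher late, ribosomal protein and mating lists were lower late than in the first pulse, and the MBF list peaked in the first pulse at 20 min and ended lower, above its trough at 70 and 80 min.

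Amino acid synthesis genes rose in a selective way. Of 9 lysine genes 3 rose by large steps and none fell (median 0.85). LYS20, a homocitrate synthase that performs the committed step, had 25.3, 20.8 and 27.6 FPKM early and 181, 194 and 216 FPKM late (2.96 ± 0.13, limma adjusted p = 0.000164). LYS9 and LYS1, the last steps of the pathway, rose from 63.7 to 76.5 FPKM to 301 to 344 FPKM and from 46.4 to 52.9 FPKM to 228 to 267 FPKM. Windows were far apart in all 3 genes, and each stood above its 0 min value late. Because LYS20 has a close paralogue, LYS21, its value depends on how shared reads were assigned. Of 14 arginine genes 6 rose and none fell (median 0.83). ARG1, argininosuccinate synthetase, stood at 104, 66.7 and 76.0 FPKM early and 573, 604 and 653 FPKM late (2.90 ± 0.17, adjusted p = 0.000277), and was past the midpoint from 60 min. ARG3, which makes citrulline, rose by 1.39 ± 0.14. ARG4, the next enzyme after ARG1, rose by 1.79 ± 0.12, and it is also a marker gene in this strain.

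Other targets of Gcn4, the general activator of amino acid synthesis, were mostly higher by less than the size of a call. Of 30 genes 4 rose and 1 fell (13.3% and 3.33%, near the 10.3% and 4.24% of all loci). By the adjusted p alone 19 were higher and 4 lower, against 29.8% and 22.5% of all loci (median 0.45). HIS3 rose from 24.4 to 35.3 FPKM to 76.1 to 156 FPKM (1.97 ± 0.29), ILV6 by 1.53 ± 0.31 and TRP2, an anthranilate synthase subunit, by 1.15 ± 0.09 (limma). BNA1, an enzyme of NAD synthesis, fell by 1.38 on the log2 scale. The Gcn4 element TGACTCA was found on either strand in 16 of 30 of these stretches and 2.43% of all, but in 2.70% of the stretches of genes that rose. Sulfur and methionine genes took the other direction, with 4 of 22 called lower and 1 higher (median -0.75), and the count depended on which libraries were used. MET14, the adenylylsulfate kinase, was at 213, 388 and 834 FPKM early, rising through the window, and at 125, 133 and 131 FPKM late (-1.66 ± 0.44, adjusted p = 0.0194). Without the 20 min library 12 genes of the list were called lower, 1 without the 40 min library, and none without any of the libraries at 30, 180, 190 or 200 min. MET14 kept its call without the 20 or 40 min library, and its adjusted p reached 0.0557 without another. The 1 higher call, CYS3, was lost without the 30 min library (adjusted p = 0.0523).

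The factor Aft1 turns on the iron regulon through elements with the core TGCACCC when iron is short. Of 24 genes 9 rose and none fell (median 0.70), and 18 were higher by the adjusted p alone. TIS11, an RNA-binding protein that speeds the decay of messages for iron-using proteins, stood at 7.12, 4.17 and 4.25 FPKM early and at 51.6, 52.2 and 69.5 FPKM late (3.27 ± 0.21, limma adjusted p = 0.000329). FRE1, the cell-surface ferric reductase, was at 76.9 FPKM or less early and at 265 FPKM or more late (1.90 ± 0.09). HMX1, heme oxygenase, rose by 2.06 ± 0.22 and ISU2, an iron-sulfur scaffold, by 2.44 ± 0.29. The late libraries of each were all above the early ones, and 6 of the 9 stood above 0 min throughout the late window, although HMX1 had 196 FPKM at 0 min against 116 to 184 FPKM late. TGCACCC occurred in 12 of 24 stretches of the list against 1.18% of all. It was in 6 of the 9 that rose and in 6 of the 15 not called. TIS11 has 2 copies, 1 on each strand, shown in capitals (RefSeq R64, minus strand, chrXII:416709-416958).
TIS11: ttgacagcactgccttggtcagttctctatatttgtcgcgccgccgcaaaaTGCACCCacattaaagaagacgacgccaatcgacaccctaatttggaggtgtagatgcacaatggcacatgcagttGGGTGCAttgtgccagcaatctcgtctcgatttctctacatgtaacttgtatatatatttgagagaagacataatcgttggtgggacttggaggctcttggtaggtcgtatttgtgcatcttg
Of the copper list 0 of 4 genes and of the zinc list 0 of 9 were called by limma at adjusted p under 0.05 with the size required. By the adjusted p alone 1 copper gene was higher, and 3 zinc genes were higher and 1 lower.

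Central carbon metabolism differed in its parts. In glycolysis and fermentation 5 of 18 genes rose and none fell (median 0.77). ENO2, an enolase, was at 1628, 1193 and 1507 FPKM early and 2898, 3818 and 4361 FPKM late (1.35 ± 0.20, limma adjusted p = 0.00201), and GPM1, PGK1 and TDH3 rose by 1.36 ± 0.19, 1.27 ± 0.18 and 1.22 ± 0.26. All 3 late libraries exceeded the early ones in each. Yet 4 of the 5 stayed below 0 min, where cells were in galactose and ENO2 was at 6280 FPKM, and near-identical copies such as ENO1 and the other TDH genes make their levels uncertain. TDH1 was at 242, 93.8 and 51.1 FPKM early and 26.2, 39.4 and 48.9 FPKM late, a difference of -1.48 that missed the threshold (adjusted p = 0.0556). The summed share of the list was 1.38% early and 3.05% late. Levels between the windows were at times higher than late ones. The list median, relative to each gene's mean over 21 libraries, was 0.38 at 80 min and 0.42 at 120 min. At 180, 190 and 200 min it was -0.21, 0.02 and 0.25.

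Glucose-repressed carbon genes, which encode alternative transporters and enzymes, included 8 that rose among 22, with none that fell (median 0.82). GLK1, glucokinase, was at 31.7, 16.6 and 22.1 FPKM early and 69.1, 117 and 143 FPKM late (2.16 ± 0.32, limma adjusted p = 0.00204). ALD6, an acetaldehyde dehydrogenase, was at 173, 78.8 and 67.2 FPKM early and 320, 307 and 336 FPKM late (1.71 ± 0.33). It was at 521 FPKM at 0 min, in galactose, and at 1317 FPKM at 10 min, in glucose, so the list name does not describe its course there. All 8 genes of the list that rose were below their 0 min value at the end. The count was 5 without the 30 min library and 4 without the 200 min library. Members of the glyoxylate cycle and gluconeogenesis varied. ICL1, isocitrate lyase, was at 7.19 to 11.3 FPKM early and 7.34 to 8.12 FPKM late, and MLS1, malate synthase, at 0.647 to 1.54 FPKM early and 1.23 to 1.72 FPKM late, and neither was called. PCK1 was at 7.59 to 9.36 FPKM early and 12.4 to 16 FPKM late, a difference of 0.74 below the size of a call. FBP1, fructose bisphosphatase, rose from 0.561 to 1.30 FPKM to 1.57 to 4.20 FPKM (1.08 ± 0.34, adjusted p = 0.0334), a call lost without the 30, 40, 190 or 200 min library (adjusted p up to 0.11). In the TCA cycle all 16 genes had higher means late, 13 passed the adjusted p alone and 4 rose (median 0.63). ACO1, aconitase, went from 157 to 214 FPKM to 583 to 766 FPKM (1.86 ± 0.16), and IDH1 and IDH2, the isocitrate dehydrogenase subunits, rose by 1.80 ± 0.22 and 1.46 ± 0.16. The 4 calls became 6 without the 180 min library and 3 without the 30 or the 200 min library.

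Respiratory chain and ATP synthase genes did not rise with the TCA cycle. None of 29 was called higher and 4 fell (median -0.29, which rescaling to the same sum moved to -0.03). QCR10, a small subunit of complex III, was at 1901, 1655 and 1608 FPKM early and at 537, 672 and 647 FPKM late (-1.48 ± 0.13, limma adjusted p = 0.000516). COX12, a subunit of cytochrome oxidase, was at 2526 to 2714 FPKM early and 1149 to 1280 FPKM late (-1.13 ± 0.11), a call lost after rescaling to the same sum (-0.88) and with a late window of 150 to 170 min. QCR10 and COX12 are both short genes, and their lowest late value was the 180 min library in each. Galactose genes were lower at the end than in the first pulse, with 4 of 8 called lower (median -0.79). Both windows follow the switch to glucose, and GAL1 was already at 104 FPKM at 140 min. GAL1, galactokinase, had 1962 FPKM at 0 min, 368, 265 and 234 FPKM in the first pulse and 87.1, 94.7 and 102 FPKM at the end (-1.58 ± 0.17, adjusted p = 0.000793), and GAL10, GAL7 and GAL2 fell by 1.74, 1.62 and 1.26 on the log2 scale. The CLB1 locus, whose rescue copy is driven by the GAL1 promoter, was at 293 FPKM at 0 min, at 178 to 238 FPKM in the first pulse and at 90.4 to 105 FPKM at the end (-1.06 ± 0.13), below the size of a call without the 20 min library (-0.96).

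The response to mating pheromone arrests cells in G1 and prepares them to fuse. Of its 27 genes 15 fell and none rose, against 4.24% of all loci, and 23 were lower by the adjusted p alone (median -1.20). FIG1, a membrane protein needed for mating, was at 2627 FPKM in the arrest, at 574, 464 and 355 FPKM in the first pulse and at 103, 98.2 and 91.5 FPKM at the end (-2.21 ± 0.18, limma adjusted p = 0.000437). FUS2, which acts in cell fusion, was at 180, 158 and 123 FPKM and then at 41.9, 38.4 and 34.0 FPKM (-1.97 ± 0.16). Values were already falling across the first window in both genes, and the late values lay below all of them. PRM6, PRM3 and PRM2, all named for pheromone regulation, fell by 1.90, 1.84 and 1.84. FAR1, the Cdk inhibitor that enforces the pheromone arrest, is not one of the 27 genes. It was at 84.2, 63.5 and 51.3 FPKM early and 18.4, 19.8 and 17.2 FPKM late (-1.76 ± 0.18). Within the list PRM10 stood apart, at 78.7 to 98.7 FPKM early and 110.0 to 141 FPKM late (0.53, adjusted p = 0.0153). All 15 genes of the list that fell were also below their 0 min value. MATa-specific genes fell in 5 of 7 cases (median -1.59), a count of 3 without the 20 min library. STE2, the alpha-factor receptor, was at 682, 468 and 375 FPKM early and 168, 157 and 165 FPKM late (-1.59 ± 0.21), and AGA2, an agglutinin subunit, fell by 1.73.

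The pheromone element TGAAACA, bound by Ste12, was found on either strand in 15 of 27 of these stretches against 5.93% of all. Of the 15 genes that fell 9 have it, as do 6 of the 12 not called. FUS2 carries 2 copies in a row, shown in capitals (RefSeq R64, plus strand, chrXIII:736626-736875).
FUS2: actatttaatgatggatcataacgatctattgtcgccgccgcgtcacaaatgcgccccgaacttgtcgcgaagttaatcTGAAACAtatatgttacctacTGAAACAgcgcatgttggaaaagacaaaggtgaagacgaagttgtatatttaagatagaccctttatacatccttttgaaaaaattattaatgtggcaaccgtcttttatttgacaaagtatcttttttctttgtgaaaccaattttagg

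MBF targets, the replication and repair genes of S phase, had a median of -0.54. Of the 38, 37 had a lower mean at the end, against 2825 of all 6203 loci. By the call rule 6 were lower (15.8%, against 4.24% of all loci). With the adjusted p alone 10 of 38 were lower, near the 22.5% of all loci. The count of 6 fell to 1 without the 20 min library and rose to 15 without the 40 min library, and values within the first window ran from high at 20 min to low at 40 min. TOF1, a replication fork protein, was at 48.7, 25.4 and 15.2 FPKM early and 11.5, 8.89 and 9.90 FPKM late (-1.33 ± 0.38, limma adjusted p = 0.0240), and lost its call without any of the libraries at 20, 30, 190 or 200 min (adjusted p up to 0.0725). RNR1, the large subunit of ribonucleotide reductase, was shown after its values were seen. It was at 21.5 FPKM at 0 min, at 1085, 617 and 322 FPKM in the first pulse and at 395, 388 and 476 FPKM at the end (-0.52, adjusted p = 0.314), so the late values lay inside the range of the early ones. MCB, the MBF element ACGCGT, was found in 30 of 38 of these stretches, in 3.40% of all, in 6.14% of genes that fell and in 1.35% of genes that rose.

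Among the G1 cyclins, CLN1 was at 243, 207 and 145 FPKM early and 154, 131 and 146 FPKM late, and CLN2 at 234, 191 and 132 FPKM early and 156, 148 and 172 FPKM late. Both had overlapping windows (limma adjusted p = 0.0958 and 0.462) and were at 8.91 and 32.5 FPKM in the arrest. PCL1, a G1 cyclin of the Pho85 kinase, was at 229, 187 and 150 FPKM early and 285, 403 and 363 FPKM late, a difference of 0.90 without overlap but below the size of a call. PCL2 fell, from 252, 202 and 166 FPKM to 96.6, 88.8 and 96.9 FPKM (-1.11 ± 0.15), a difference of -0.95 without the 20 min library. CLN3, the cyclin that acts upstream of SBF, was at 83.5, 53.0 and 48.8 FPKM early and 54.0, 54.7 and 55.2 FPKM late. SBF targets of budding and wall had 3 called higher and 2 lower of 24 (none lower without the 20 min library). That is 12.5% and 8.33%, against 10.3% and 4.24% of all loci. The list median of 0.03 became -0.03 after rescaling by the median ratio. GAS5 and CRH1, which remodel wall glucan, rose by 1.75 ± 0.17 and 1.38 ± 0.24, and YPS3, a cell-surface protease, by 2.45 ± 0.38. MNN1, a Golgi mannosyltransferase, fell by 1.22, and by 0.99 without the 20 min library. SCB, the SBF element CGCGAAA, was found in 5 of 24 stretches of the list and 3.97% of all.

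Of the B-type cyclin loci CLB6 was at 156, 160 and 58.1 FPKM early and 41.6, 52.0 and 52.7 FPKM late (-1.21 ± 0.38, limma adjusted p = 0.0355). Its call was lost without any library but that of 40 min (adjusted p up to 0.106). CLB5 was at 80.4, 65.3 and 52.9 FPKM early and 44.5, 53.1 and 49.5 FPKM late, with overlap. CLB2 was at 44.4 to 66.7 FPKM early and 69.7 to 82.4 FPKM late, and CLB3 at 25.5 to 28.3 FPKM early and 23.1 to 24.8 FPKM late, neither of which was called. Since every one of these genes is disrupted, the values cannot be read as levels of a working message.

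Histone genes peak in S phase in dividing yeast. HTA1 was at 2344, 4914 and 3803 FPKM early and 3575, 3546 and 4211 FPKM late, and HTB2 at 2424, 5337 and 5724 FPKM early and 3162, 3330 and 3520 FPKM late. Both overlapped (limma adjusted p = 0.788 and 0.424). HHT1, a histone H3 gene, was called, from 708, 2041 and 2440 FPKM to 3603, 4785 and 4494 FPKM (1.49 ± 0.45, adjusted p = 0.0308), and lost the call without the 20, 180, 190 or 200 min library (adjusted p up to 0.0863). The 20 min library was the lowest early one in 10 of the 11 histone genes. HHT1 and HHT2, and HHF1 and HHF2, encode the same proteins, so reads may be split between them. The 11 genes held 1.92% of the summed FPKM early and 3.10% late, with an early range of 1.03% at 20 min to 2.38% at 40 min.

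B-type cyclins promote the transcription of genes of G2 and mitosis. Of 23 genes in the Clb2 cluster 6 rose and none fell (median 0.80), and 13 were higher by the adjusted p alone. CHS2, the septum chitin synthase, was at 10.8, 9.06 and 13.3 FPKM early and 32.6, 28.7 and 35.4 FPKM late (1.47 ± 0.15, limma adjusted p = 0.000700), and HST3, a histone deacetylase, rose from 4.10 to 4.61 FPKM to 11.3 to 12.6 FPKM (1.24 ± 0.12). Windows were well apart in both, but the levels were low. The count of 6 was 3 without the 30 min library and 4 without the 20 or the 200 min library. PMP1, a very abundant short gene of the list, was at 24295 to 48063 FPKM early and 15109 to 19542 FPKM late (-0.93), so the summed share of the list went from 2.09% to 1.29% while most members were higher. Among spindle genes and other targets of Hcm1 1 of 21 fell, BIM1, a microtubule plus-end protein (-1.09 ± 0.10), with a list median of -0.46. That is 4.76% of the list, close to the 4.24% of all loci. The call of BIM1 was lost after rescaling to the same sum (-0.84), with an early window of 30 to 50 min and with a late window of 150 to 170 min. Without the 20 or the 180 min library 2 of them were called.

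SIC1, the inhibitor of B-type cyclin kinase, was at 34.0, 33.8 and 28.6 FPKM early and at 83.7, 95.8 and 79.0 FPKM late (1.39 ± 0.11, limma adjusted p = 0.000451). The late libraries of SIC1 were all above the early ones and above its 0 min value of 46.8 FPKM.

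**Figure D4:**
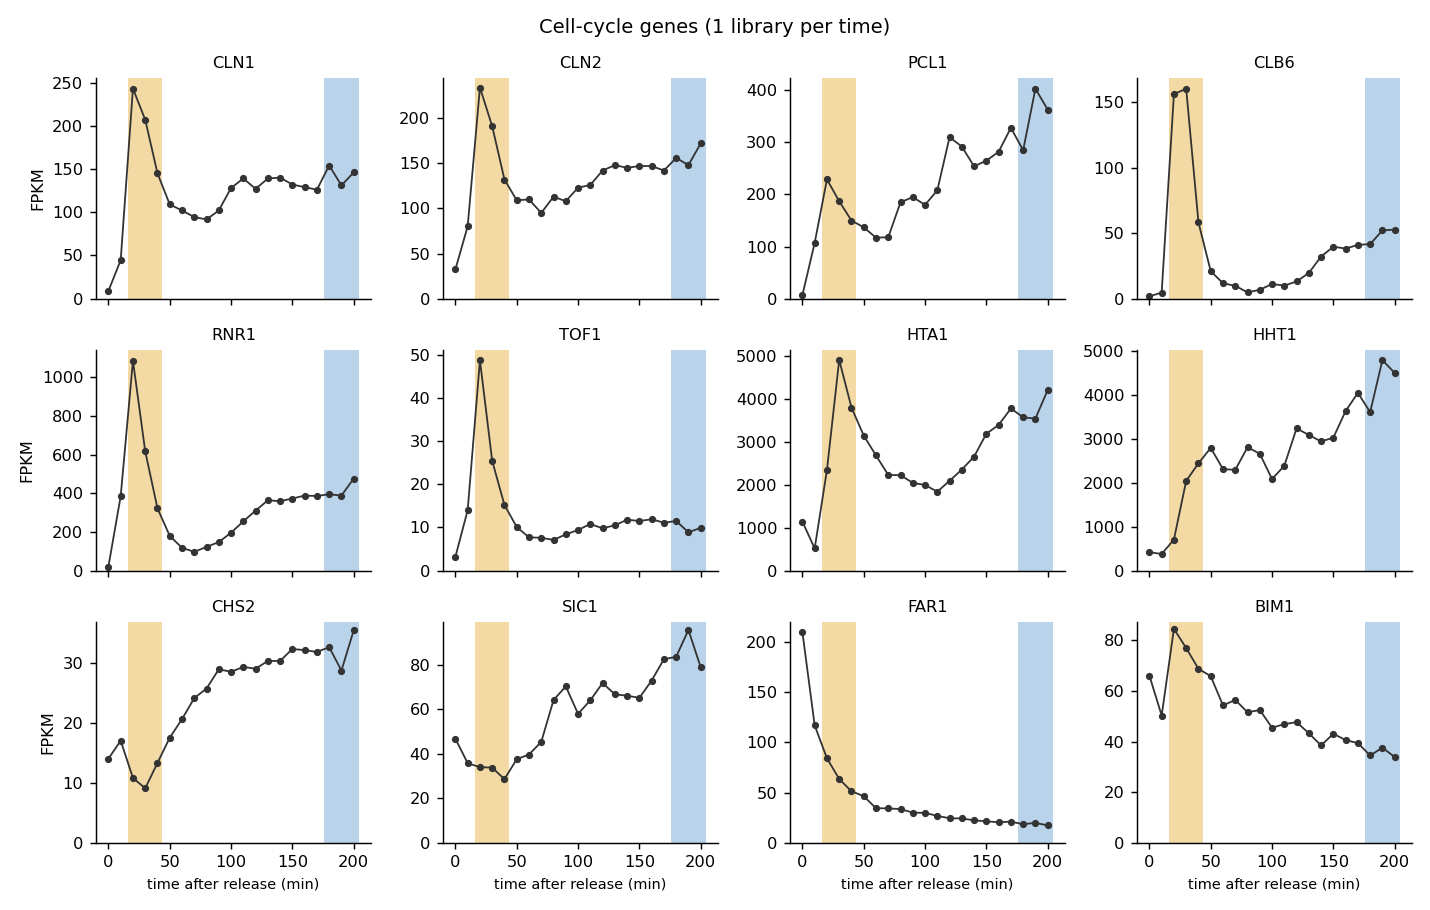
FPKM of 12 cell-cycle genes (vertical axes, linear and starting at 0) is drawn against time after release (horizontal axes), with 1 point per library and the windows shaded tan and blue. RNR1, TOF1 and CLB6 were far lower at 40 min than at 20 min, CLN1 and CLN2 had late values that overlapped their early ones, and PCL1, HHT1, CHS2 and SIC1 were highest late.

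Of 137 genes for cytosolic ribosomal proteins 27 fell and none rose, 86 were lower by the adjusted p alone against 22.5% of all loci, and the median was -0.69 (-0.44 after rescaling to the same sum). Leaving out 1 library gave 22 to 37 called lower. RPL16A was at 3659, 3962 and 3710 FPKM early and 1291, 1273 and 1437 FPKM late (-1.5 ± 0.11, limma adjusted p = 0.000437). The early and the late libraries each varied little, and the gap between them was wide. RPL22B, the minor copy of its pair, was at 1645, 1345 and 1017 FPKM early and 377, 343 and 317 FPKM late (-1.92 ± 0.18), and RPL8A and RPL40B fell by 1.59 and 1.58. Most ribosomal protein genes come as near-identical pairs, so the split of reads between copies is uncertain. The most abundant, RPL39, was at 38574 to 62035 FPKM early and 14413, 41240 and 20458 FPKM late, overlapping, and was not called (-1.18, adjusted p = 0.0542). Together these genes held 44.5% ± 3.2 (SD, 3 libraries) of the summed FPKM early and 33.8% ± 2.38 late. Of the 27 that fell 26 were below their 0 min value at the end.

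Ribosome biogenesis factors, which process and assemble ribosomal RNA, had 1 of 47 called lower (2.13%, against 4.24% of all loci) and none higher. Without the 40 or the 180 min library 2 were called lower. By the adjusted p alone 34 were lower, against 22.5% of all loci (median -0.52). RRP8, a ribosomal RNA methyltransferase, was at 143, 150 and 126 FPKM early and 60.8, 59.3 and 51.3 FPKM late (-1.27 ± 0.11, limma adjusted p = 0.000486). The PAC core CGATGAG was found on either strand in 33 of 47 stretches of the list and 6.91% of all. It was in 6.58% of the stretches of genes that fell and 4.25% of those of genes that rose. The upstream stretch of RRP8 holds it (RefSeq R64, plus strand, chrIV:611773-612022, core in capitals).
RRP8: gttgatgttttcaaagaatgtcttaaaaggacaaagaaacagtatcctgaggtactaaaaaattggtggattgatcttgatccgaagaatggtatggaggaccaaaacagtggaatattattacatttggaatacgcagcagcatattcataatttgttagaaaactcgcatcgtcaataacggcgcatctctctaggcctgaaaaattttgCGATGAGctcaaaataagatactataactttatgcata
RNA polymerase I and III genes had a median of -0.38 with 12 of 24 lower by the adjusted p alone. Translation factors and tRNA synthetases had a median of -0.24, which turned to 0.02 after rescaling to the same sum. Mitochondrial ribosomal proteins did not follow the cytosolic ones. Of 71 genes 7 rose and none fell, close to the 10.3% of all loci, and 32 were higher by the adjusted p alone (median 0.38). RSM19 was at 15.2, 14.1 and 20.5 FPKM early and 48.7, 102 and 81.0 FPKM late (2.10 ± 0.28).

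Mannoproteins form the outer layer of the cell wall. Of 22 such genes 9 rose and none fell (median 0.56), and their summed share was 0.704% early and 2.56% late. HPF1, a mannoprotein, was at 4.36, 5.63 and 9.18 FPKM early and 67.6, 95.1 and 134 FPKM late (3.75 ± 0.31, limma adjusted p = 0.000471). SED1, the main wall protein of resting cells, was at 2470, 1245 and 1133 FPKM early and 4954, 6089 and 7727 FPKM late (2.02 ± 0.33), and CWP1 rose from 106 to 152 FPKM to 470.0 to 652 FPKM (2.09 ± 0.17). In each the late values increased from 180 to 200 min and lay above all early libraries. CCW12, another wall mannoprotein, had 1907 to 3388 FPKM early and 4989, 11555 and 13342 FPKM late (1.90 ± 0.41). Among cell wall integrity genes 3 of 20 rose (15.0%, near the 10.3% of all loci) and the median was 0.09, near that of all loci, with 5 higher and 4 lower by the adjusted p alone. The 3 included CRG1 (1.42 ± 0.10) and BGL2, a glucan transferase (1.22 ± 0.17).

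Of 16 purine genes 3 rose and 1 fell, and 10 were higher and 5 lower by the adjusted p alone (median 0.45). ADE17, a bifunctional enzyme of the last steps of the pathway, was at 4.57 to 5.01 FPKM early and 13.1 to 17.7 FPKM late (1.48 ± 0.14, limma adjusted p = 0.000564). AAH1, an adenine deaminase of purine salvage, fell from 355, 334 and 323 FPKM to 109, 98.0 and 108 FPKM (-1.68 ± 0.09, adjusted p = 0.000218). Membrane and other nutrient lists gave few calls. In the ergosterol pathway 4 of 24 fell and none rose (2 fell without the 40 min library), and the median of -0.21 turned to 0.04 after rescaling to the same sum. ERG25, a sterol demethylase, was at 1114, 928 and 1057 FPKM early and 407, 402 and 490.0 FPKM late (-1.25 ± 0.13, limma adjusted p = 0.000628), and HMG1, an HMG-CoA reductase, fell by 1.15. Of 17 phosphate genes 2 fell, or 3 without the 40 min library. PHM6 went from 49.6, 34.7 and 40.2 FPKM to 8.38, 7.76 and 11.9 FPKM (-2.05 ± 0.19), while the other, PHO84, lost its call without any library but that of 40 min (adjusted p up to 0.0984). Of 28 nitrogen-regulated genes 1 rose (3.57%, against 10.3% of all loci), UGA1 (1.17 ± 0.14), with 2 called without the 20 or the 180 min library. Of 24 genes of the unfolded protein response and secretion none rose and 1 fell (4.17%, close to the 4.24% of all loci). That gene was LHS1, a chaperone of the endoplasmic reticulum, whose call was lost without the 20, 30, 190 or 200 min library (a difference as small as -0.92). In the DNA damage list 3 of 13 rose, while 7 of 13 had a lower mean late and the median of -0.07 turned to 0.18 after rescaling to the same sum. SML1, the inhibitor of ribonucleotide reductase, was at 580.0, 307 and 384 FPKM early and 988, 1961 and 1995 FPKM late (1.94 ± 0.34, adjusted p = 0.00397), and the repair gene MAG1 and its neighbour DDI1, which share an upstream region, rose by 1.27 ± 0.20 and 1.22 ± 0.10. Of 10 meiotic genes 2 rose, DMC1, a meiotic recombinase, from 3.28 to 3.83 FPKM to 14.8 to 19.5 FPKM (1.99 ± 0.14) and IME2, a meiotic kinase (1.22 ± 0.15).

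**Figure D5:**
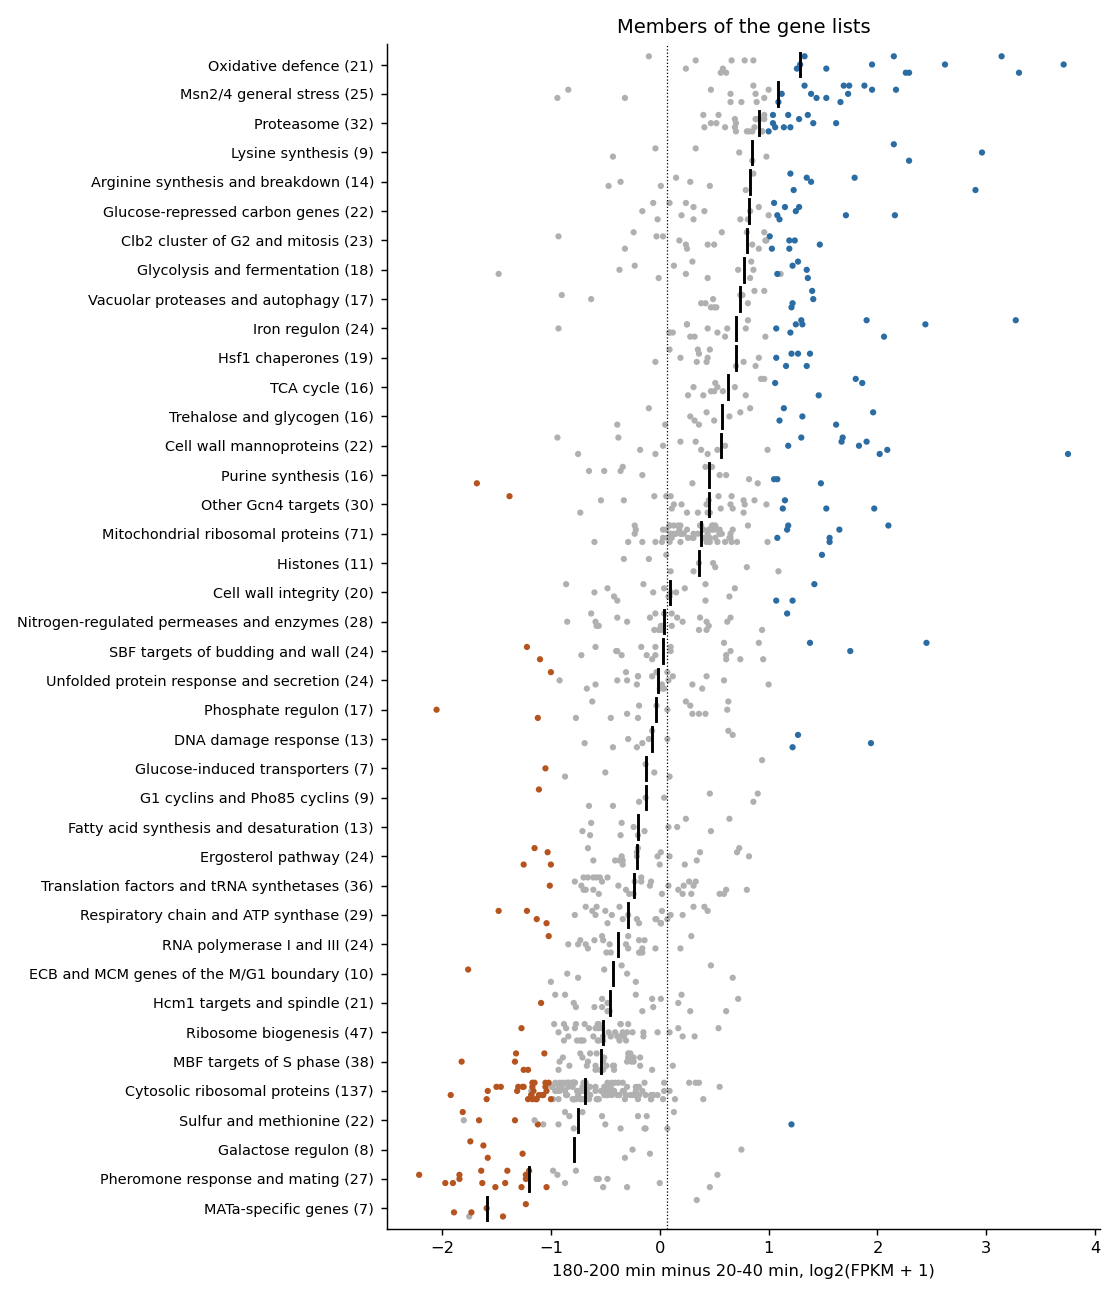
Each point is the window difference in log2(FPKM + 1) of a list member (horizontal axis), with lists in rows ordered by median (vertical axis, number of members tested in brackets). Blue points were called higher, orange points lower and grey points not called, black bars mark list medians and the dotted line the median over all loci, 0.07. Oxidant defence has the highest median, 1.29, MATa-specific genes the lowest, -1.59, and all 32 proteasome points lie above 0.

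The loci that fell most, taken over all genes of at least 300 bp, mixed the mating genes above with others. YGL204C was at 278, 273 and 230.0 FPKM early and 46.2, 49.3 and 34.5 FPKM late (-2.57 ± 0.15, limma adjusted p = 0.000277). CIN2, which acts in tubulin folding, was at 110.0, 97.3 and 51 FPKM early and 15.5, 13.8 and 13.2 FPKM late (-2.45 ± 0.28), and GPI8, a subunit of the GPI transamidase, at 115, 99.3 and 85.1 FPKM early and 27.5, 26.6 and 27.1 FPKM late (-1.83 ± 0.12). Windows were separate in all 3. YGL101W fell by 2.01, YBR027C by 1.92, and NDJ1, a meiotic telomere protein, by 1.86. Some of these loci may overlap other annotated genes, and neither the labels nor the file header says how strand was treated in counting.

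The changes came at different times. Taking the first time from which every later library lay on the late side of the midpoint, the median turn was at 110 min for 602 of the genes that rose and at 80 min for 252 of those that fell. Of the former 32 had turned by 50 min and 65 only from 160 to 180 min. Compared with the arrest, the 638 that rose were split. In 321 all late libraries exceeded the 0 min library, in 196 all were below it and in 121 the 0 min value lay within the late range. Of the 263 that fell, 176 ended below their 0 min value and 56 above it. Calls were more frequent in short genes, at 14.1% higher and 9.40% lower for loci under 300 bp against 3.62% and 2.68% for those of 2 kb and over. Loci with no annotated length were called higher most often, at 24.9% of 429, with 6.06% lower. Within 30 kb of a chromosome end 42 of 279 loci (15.1%) rose and 9 (3.23%) fell, against 8.90% and 4.15% of the 5495 elsewhere, and the median level was lower near the ends, at 27.2 against 47.6 FPKM.

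Some calls named above depended on scaling or on the windows. After rescaling to the same sum, CLB1, CLB6, PCL2, MNN1, ERG25, HMG1, LHS1 and PHO84 also lost their lower calls, with differences from -0.75 for LHS1 to -1.0 for ERG25. With an early window of 30 to 50 min the calls of AHA1, CCW12, ILV6, HHT1, CYS3, CLB1, CLB6, PCL2, MNN1, TOF1, LHS1 and PHO84 were lost. With a late window of 150 to 170 min those of BGL2, UGA1, HMG1, HHT1, CYS3 and LHS1 were lost, and with a pseudocount of 5 those of FBP1, HST3, IME2, LHS1 and PHO84.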

How the data were processed

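RNA from 21 samples of a single strain, 1 per time point, was sequenced from libraries made with a stranded kit, per the labels' protocols. The authors aligned reads with STAR and quantified them with Cufflinks and Cuffnorm on genome build R64, per the submitters' processing notes; neither versions nor the strand setting are stated there. The deposited values were taken as FPKM with 1 added, inferred from the values: no deposited value was under 1. That 1 was removed before the log2(FPKM + 1) transform (pseudocount 1). Another table, with 50 wild-type columns, was not used here.

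Loci with a mean of at least 1 FPKM over the 6 libraries were fitted with limma 3.58.1 in R 4.3.3 (moderated variances with a mean-variance trend, no covariate), with Benjamini-Hochberg adjustment over all of them. The smallest two-sided p of an exact permutation test of 3 against 3 libraries is 0.1, so none is given. Tables were made with Python 3.11.15, numpy 2.4.6 and pandas 2.3.3. The fit was tested on simulated data before use and recovered most of the changes put in. The simulated libraries were independent and had no trend within a window, so that test does not bear on neighbouring times. The table used holds no read counts; low values lay on steps worth about 0.0517 to 0.0643 FPKM for a 1 kb gene, so values well under 1 FPKM rest on few fragments, and no 2 libraries held identical values.

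The members and gene lists were chosen with earlier results of these data known, and lists are described by counts and medians only. Named genes were, per list, up to 4 called members with the greatest difference in the main direction and up to 2 in the other, plus the 15 greatest differences each way over all loci of at least 300 bp with separate windows; cyclin, histone, mating-type and marker genes were given as values. The text names part of these and says where it names others; RNR1, ICL1, MLS1, PCK1, FBP1, NTH2, YGP1, TDH1, PRM10, PMP1 and RPL39 were added after their values were seen. Of 7126 loci, 6201 matched a RefSeq R64 gene. Motifs were searched on both strands from 300 to 51 bases before annotated starts. Alternatives were another pseudocount, minimum, library scaling, variance trend, locus set or window, and leaving out each library. A few genes and a list are not reported here.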

Additional observations from a re-analysis of the deposited data

How the results depend on the processing

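Under 16 alternatives no called gene named by the rule changed sign, and the call of 97 of the 149 called held under every alternative. Without each library in turn 117 of them held. The count of loci called higher was 383 with a pseudocount of 5 and 1041 after rescaling libraries to 1 sum of FPKM, and the count called lower was 124 after that rescaling, against 638 and 263. Under the other alternatives both counts, and the 3246 loci passing the adjusted p alone, stayed within 1.5 times. Leaving out 1 library gave 527 to 751 higher, 225 to 313 lower and 2343 to 3122 by the adjusted p alone. Of the 638 and 263 calls, 451 and 159 held without every library in turn. No paired analysis was possible because the labels give time points and no replicate numbers. Depth limits short and low loci most: of the loci called higher, 45 were shorter than 300 bp and 107 had no annotated length. Those are 14.1% of the 319 loci under 300 bp and 24.9% of the 429 with no annotated length, against 10.3% of all loci. The libraries of a window are neighbouring times, so a trend within a window widens its spread, and no replicate culture bears on any result. The cause of the dependence on scaling was not tested.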
